A study of Mus musculus with 17 samples.

Results

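The 6 genes followed here, Prx, Mbp, Pmp22, Mag, Sox10 and Egr2, are genes of peripheral nerve myelin, and their levels were compared in mouse mammary gland. They were chosen by name, with earlier results of these data known, and every row of the deposited expression table with such a gene name was taken. All 6 were found among 22139 loci that carried 1 gene symbol. Mbp had 2 loci and the other genes 1 each, so 7 of the 30843 loci in the table belong to the 6 genes.

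Schwann cells wrap the axons of peripheral nerves in myelin, a stack of membrane held together by a few abundant proteins. Mbp (myelin basic protein) and Pmp22 (peripheral myelin protein 22) belong to compact myelin, Mag (myelin-associated glycoprotein) sits on the membrane that faces the axon, and Prx (periaxin) links the outer Schwann cell membrane to the surrounding matrix. Sox10 and Egr2 are transcription factors: Sox10 is needed throughout the Schwann cell lineage, and Egr2 (Krox20) switches on the myelin genes together with it. Several of the genes are also known outside nerve. Sox10 is expressed by epithelial cells of the mammary gland, Egr2 by activated immune cells, and Pmp22 by many tissues.

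The RNA-seq libraries were made from polyadenylated RNA of whole mammary glands, taken from nulliparous females of the C57Bl/6 strain in 4 genotypes. AROM mice carried tet-op-CYP19A1 with MMTV-rtTA, a tetracycline-controlled human aromatase transgene, and CERM mice carried tet-op-Esr1 with the same MMTV-rtTA, a tetracycline-controlled estrogen receptor alpha transgene. BRCA mice were Brca1fl11/fl11, MMTV-Cre, p53+/-, with the floxed Brca1 exon removed where the MMTV promoter, active mainly in mammary epithelium, drives Cre, and with 1 functional Trp53 allele. The WT mice are labelled wild type. The labels used here give no age and no drug treatment, and do not say whether libraries came from separate animals. They list 17 libraries: 2 single-end libraries of each genotype, and 3 AROM, 3 CERM, 2 BRCA and 1 WT paired-end library.

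The authors deposited 1 FPKM value per locus for each genotype and layout (fragments scaled to transcript length and to the total of mapped fragments), 8 columns in all, with the libraries already combined. There was therefore no spread between replicates, no test was possible, and the number of reads behind a value is unknown. A locus was called higher or lower when FPKM + 1 differed at least 2-fold, among loci with at least 1 FPKM in at least 2 of the 4 columns of a layout. In both WT columns many values end in repeating decimals, the form that dividing by 3 gives (46.7% of single-end and 43.3% of paired-end values), while the labels give 2 and 1 WT libraries. Which values were averaged there is not known, and all comparisons with WT carry this limit. The paired-end AROM column also stands apart, since 18 unnamed loci above 100000 FPKM hold 98.4% of its sum, and its median over analysed loci was 7.68 FPKM against 8.42 to 9.52 in the other paired-end columns. The layouts of a genotype lay unequally far apart: the median absolute log2 difference between them over 12042 loci was 0.29 in AROM, 0.16 in CERM, 0.06 in BRCA and 0.16 in WT. The labels were only partly borne out by the engineered genes. Esr1 was at 8.49 and 8.41 FPKM in CERM, close to the 8.41 and 7.87 FPKM of AROM, so CERM and AROM could not be told apart by it. Cyp19a1, the mouse gene of aromatase, was at 0.0591 and 0.0502 FPKM in AROM and was listed at 0 in the other 6 columns; the human transgene has no row of its own. Trp53 was lowest in BRCA (12.3 and 12.1 FPKM), while Brca1 over its whole locus was highest there (3.28 and 3.29 FPKM) and does not measure the deleted exon. AROM, CERM, BRCA and WT below are thus the labels of columns.

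The 4 myelin structure genes followed 1 order of genotypes in the single-end columns, and the 2 transcription factor genes followed it in neither layout. Prx, Mbp, Pmp22 and Mag were highest in AROM, next in CERM, then in WT, and lowest in BRCA in the single-end columns. Prx, Mbp and Pmp22 kept that order in the paired-end columns. Mag, under 1 FPKM throughout, did not, with WT (0.461 FPKM) just above CERM (0.459 FPKM) there. Sox10 ran close to the reverse, lowest in AROM in both layouts, and Egr2 had different orders in the 2 layouts. Across the 12042 loci analysed in both layouts, 1.98% had the order of Prx, Mbp and Pmp22 in both. The order was read from the values of these genes before it was counted, so this share is a description and no test.

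**Figure D1:**
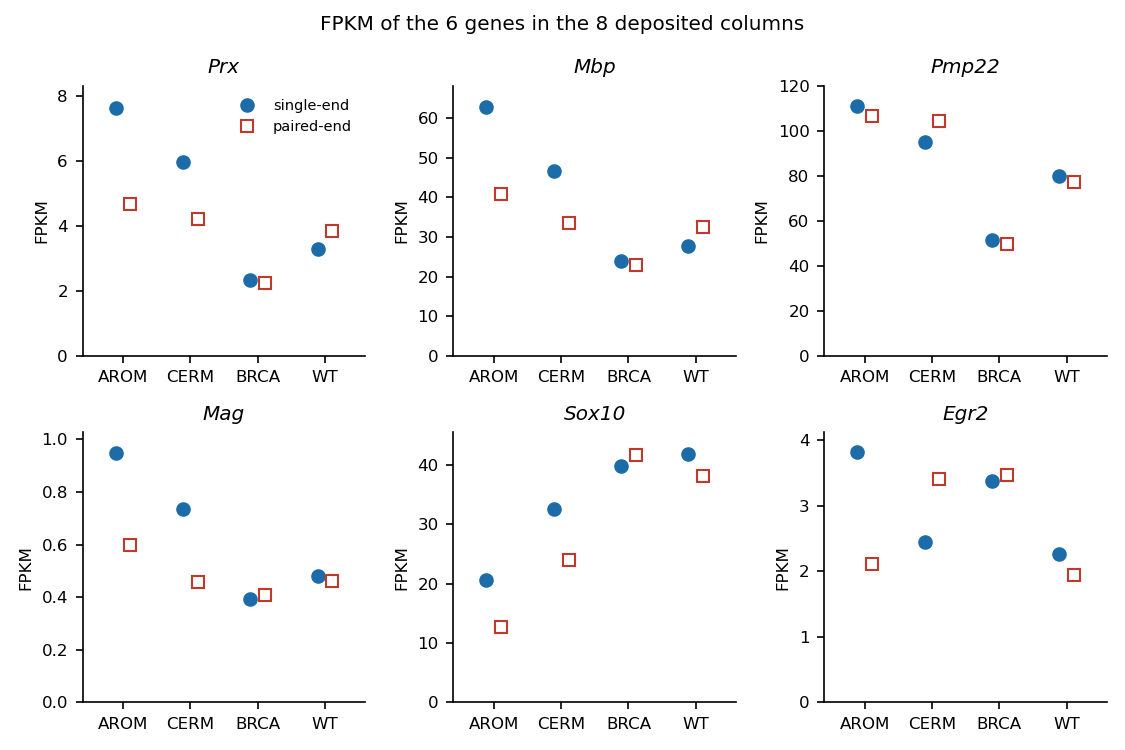
FPKM of each gene (y axis, linear, from 0) in the columns AROM, CERM, BRCA and WT (x axis), with filled circles for single-end and open squares for paired-end columns, 1 pooled value each and no error bar. Prx, Mbp and Pmp22 are highest in AROM and lowest in BRCA in both layouts, whereas Sox10 is lowest in AROM, at 20.6 and 12.7 FPKM.

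Prx was at 7.65 FPKM in AROM, 5.96 in CERM, 2.33 in BRCA and 3.28 in WT in the single-end columns. Its paired-end values were 4.68 FPKM in AROM, 4.21 in CERM, 2.24 in BRCA and 3.84 in WT. The BRCA values nearly coincide between layouts, while AROM and CERM stood well above WT only in the single-end columns. Mbp, at its main locus, was at 62.8 FPKM in AROM, 46.6 in CERM, 23.9 in BRCA and 27.7 in WT in the single-end columns. The paired-end columns gave 40.7 FPKM in AROM, 33.4 in CERM, 22.9 in BRCA and 32.4 in WT, so CERM and WT lay side by side there.

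Pmp22, the most abundant of the 6 genes in every column, was at 111 FPKM in AROM, 95.1 in CERM, 51.8 in BRCA and 80.0 in WT in the single-end columns. The paired-end columns gave 107 FPKM in AROM, 105 in CERM, 49.7 in BRCA and 77.4 in WT. Unlike Prx and Mbp, Pmp22 differed little between layouts, and BRCA was the lowest column in each. Mag, which mediates contact between glia and axon, was at 0.949 FPKM in AROM, 0.736 in CERM, 0.392 in BRCA and 0.480 in WT in the single-end columns. The paired-end values of Mag were 0.600 FPKM in AROM, 0.459 in CERM, 0.409 in BRCA and 0.461 in WT. Mag stayed under 1 FPKM in all 8 columns, so it was not called in any comparison and its values are given as a description.

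The second Mbp locus was listed between Galr1 and Zfp236 in the numbering of loci, and the main one between Pqlc1 and Mir5112. Its strand and exons are not given in the table. It held 0.294 FPKM in AROM, 0.252 in CERM, 0.117 in BRCA and 0.240 in WT in the single-end columns. The paired-end values were 0.297 FPKM in AROM, 3.27 in CERM, 0.126 in BRCA and 0.222 in WT, so CERM stood 11.0 times above AROM, the next highest column. The main Mbp locus shows no such value in that column. This locus was under the FPKM minimum in both layouts and was not called.

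The sequences before the starts of Prx, Pmp22 and Mag are shown because these genes shared the order of genotypes in the single-end columns and are known targets of the 2 transcription factors. They are the 250 bases before the most upstream start in the RefSeq table for GRCm38.p6, a later build than the mm9 of the expression table, written 5′ to 3′ on the strand of the gene. The positions are chr7:27499074-27499323 (plus strand) for Prx, chr11:63128732-63128981 (plus strand) for Pmp22 and chr7:30914923-30915172 (minus strand) for Mag. Capitals mark the letters of a match to ACAAAG or ACAATG, cores of SOX sites, or to GTGGGNG, a core of EGR sites, searched on both strands.
Prx: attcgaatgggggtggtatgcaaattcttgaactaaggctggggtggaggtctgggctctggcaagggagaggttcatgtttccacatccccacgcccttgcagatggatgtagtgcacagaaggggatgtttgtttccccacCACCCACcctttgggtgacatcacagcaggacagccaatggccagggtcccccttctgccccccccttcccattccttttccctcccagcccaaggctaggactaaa
Pmp22: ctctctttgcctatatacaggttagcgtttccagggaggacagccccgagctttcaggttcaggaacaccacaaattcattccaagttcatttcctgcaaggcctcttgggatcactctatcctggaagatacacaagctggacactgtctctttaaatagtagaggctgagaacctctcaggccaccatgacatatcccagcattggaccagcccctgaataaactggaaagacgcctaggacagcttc
Mag: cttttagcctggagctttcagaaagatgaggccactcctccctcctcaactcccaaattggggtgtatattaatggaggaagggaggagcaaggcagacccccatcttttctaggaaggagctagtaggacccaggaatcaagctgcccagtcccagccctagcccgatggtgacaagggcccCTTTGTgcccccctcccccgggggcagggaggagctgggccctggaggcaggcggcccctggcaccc
Prx held 1 EGR match, Mag held 1 SOX match, and Pmp22 held neither in this window. Of 27025 windows of the same length, 1 per gene, 25.4% held a SOX match and 27.8% an EGR match, so these matches are common letters. Pmp22 has 4 starts in the table and the FPKM values do not tell them apart. Sox10 and Mbp were not matched in the promoter table. Egr2 was matched, and its window held 2 EGR matches.

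Prx, Mbp, Pmp22 and Mag had their highest values in AROM in both layouts, and AROM is compared with WT first. In the single-end columns 2 of the 5 genes analysed were called, Prx and Mbp, both higher, beside 4.27% of all 12608 loci called in either direction. Prx was 2.33 times and Mbp 2.27 times its WT value, log2 ratios of FPKM + 1 of 1.02 and 1.15. Pmp22 had a log2 ratio of 0.47, and Mag, not called for its low level, was at 1.98 times WT. In the paired-end columns neither Prx (0.23) nor Mbp (0.32) nor Pmp22 (0.46) passed 2-fold, and the 1 call of 5 was Sox10, beside 4.94% of 12185 loci. Skeletal muscle markers moved with these calls: all 9 analysed were past 2-fold in AROM against WT in the single-end columns (median 1.68) and 0 of 9 in the paired-end columns (median 0.28), and their part in the Prx and Mbp values was not tested. The median log2 ratio over all analysed loci was 0.00 in the single-end and -0.08 in the paired-end columns.

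Sox10 was the 1 gene of the 5 called in AROM against WT in the paired-end columns. It was at 20.6 FPKM in AROM, 32.6 in CERM, 39.8 in BRCA and 41.8 in WT in the single-end columns. The paired-end columns gave 12.7 FPKM in AROM, 23.9 in CERM, 41.7 in BRCA and 38.2 in WT. AROM was lowest and CERM second lowest in both layouts, and BRCA and WT exchanged places. The log2 ratio of AROM to WT was -1.51 in the paired-end columns, a call, and -0.99 in the single-end columns, just short of one. There the plain FPKM ratio was 0.492, and with a pseudocount of 0.1 the log2 ratio was -1.02, which would be called.

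**Figure D2:**
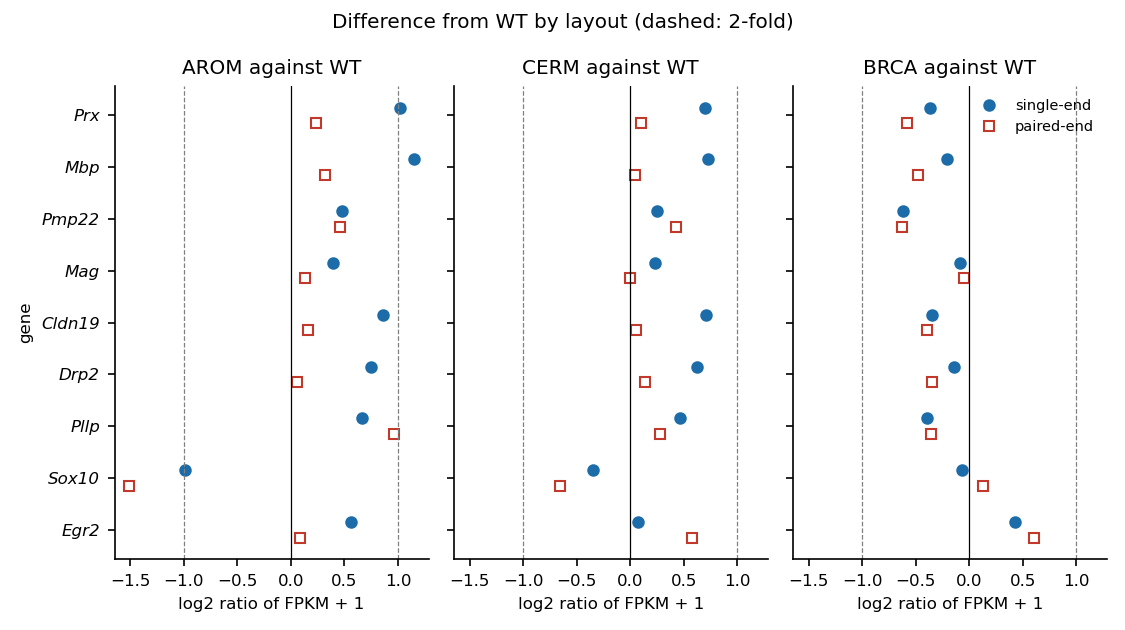
Log2 ratio of FPKM + 1 of AROM, CERM and BRCA to WT (x axes) for the myelin genes, Sox10 and Egr2 (y axis), with filled circles for single-end and open squares for paired-end columns and dashed lines at 2-fold. In AROM against WT the single-end values of Prx (1.02) and Mbp (1.15) lie beyond the line and their paired-end values (0.23 and 0.32) do not; Mag is under the FPKM minimum.

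CERM against WT gave no call among the 5 genes in either layout, beside 4.62% of all loci called in the single-end and 4.36% in the paired-end columns. All 9 muscle markers passed 2-fold in the single-end (median 1.58) and 1 of 9 in the paired-end columns (median 0.54). The single-end log2 ratios were 0.70 for Prx, 0.73 for Mbp and 0.25 for Pmp22, and the paired-end ones 0.10, 0.04 and 0.43. Sox10 was at -0.35 and -0.65 and Egr2 at 0.08 and 0.58. Prx and Mbp thus had their higher ratio in the single-end and Pmp22, Sox10 and Egr2 their more distant one in the paired-end columns.

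BRCA against WT gave no call either, beside 5.42% of all loci in the single-end and 5.7% in the paired-end columns, but the structure genes lay below WT throughout. The median over all loci was 0.03 in the single-end and 0.10 in the paired-end columns. Prx was at -0.36 and -0.58, Mbp at -0.21 and -0.48, and Pmp22 at -0.62 and -0.63 on the log2 scale. Pmp22 had 5.85% of analysed loci below it in the single-end and 3.82% in the paired-end comparison. Sox10 did not share this direction in both layouts, at -0.07 and 0.12. Egr2 lay above WT, at 0.42 and 0.60.

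The comparisons without WT use no column with repeating decimals, and AROM against BRCA held the largest difference of the 5 genes in each layout. In AROM against BRCA, single-end columns, 3 of 5 genes were called, beside 8.51% of all loci: Prx (1.38), Mbp (1.36) and Pmp22 (1.09), all higher in AROM. In the same comparison 7 of 9 muscle genes (median 1.21) and 4 of 9 adipocyte genes (median 0.89) were past 2-fold in the single-end columns, and 0 of 9 muscle genes (median 0.62) and 9 of 9 adipocyte genes (median 1.51) in the paired-end columns, all higher in AROM; their part in these calls was not tested. In the paired-end columns 2 of 5 were called, Pmp22 higher (1.09) and Sox10 lower (-1.64), beside 14.7% of all loci, whose median was -0.22. Prx and Mbp were at 0.81 and 0.80 there, and both passed 2-fold once the columns were scaled by their median ratio (1.01 and 1.06). In CERM against BRCA 1 of 5 was called in each layout, Prx in the single-end columns (1.07, beside 5.29% of loci) and Pmp22 in the paired-end columns (1.06, beside 4.57%). CERM against AROM gave no call, beside 2.76% and 6.27% of loci, with Sox10 the farthest, at 0.64 and 0.86, beside medians over all loci of -0.03 and 0.18.

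Egr2, known also as an immediate early gene, was at 3.82 FPKM in AROM, 2.44 in CERM, 3.38 in BRCA and 2.26 in WT in the single-end columns. Its values in the paired-end columns were 2.11 FPKM in AROM, 3.40 in CERM, 3.46 in BRCA and 1.94 in WT. WT was the lowest column in both layouts and BRCA was high in both, while AROM and CERM changed places. Egr2 was called in none of the 12 comparisons.

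Other genes of myelin were read from a list made with earlier results of these data known. Of 14 listed, 13 were in the table, and 8 were analysed in the single-end and 7 in the paired-end columns. Cldn19, the claudin of Schwann cell tight junctions, was at 2.22 FPKM in AROM, 1.89 in CERM, 0.392 in BRCA and 0.773 in WT in the single-end columns. Its paired-end values were 1.17 FPKM in AROM, 1.02 in CERM, 0.481 in BRCA and 0.943 in WT. Pllp (plasmolipin), a membrane protein gene of myelin, was at 3.91 FPKM in AROM, 3.26 in CERM, 1.36 in BRCA and 2.09 in WT in the single-end columns and at 4.88, 2.65, 1.35 and 2.02 FPKM in the paired-end AROM, CERM, BRCA and WT columns. Pllp and Cldn19 had the order of Prx in both layouts, but Cldn19 reached 1 FPKM in AROM and CERM alone and was analysed through these columns, so its order is a description. In AROM against WT none of 8 passed 2-fold in the single-end columns, all 8 lay above 0, and the list median was 0.52. Cldn19 and Ugt8a are among these 8. Both reached 1 FPKM in AROM and not in WT (0.773 and 0.712 FPKM), so the filter fixed their direction. The count above 0 and the median include them and are a description. None of 7 passed 2-fold in the paired-end columns, where the median was 0.03 and Cldn19 was again analysed through AROM and CERM.

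In AROM against BRCA 2 of 8 list members were called in the single-end columns, Pllp (1.06) and Cldn19 (1.21), both higher in AROM, beside 8.51% of all loci, and Cldn19 was analysed through its high columns. In the paired-end columns 1 of 7 was called, Pllp (1.33), a share near the 14.7% of all loci. Drp2, whose product binds Prx in the Schwann cell membrane, had log2 ratios to WT of 0.75 in AROM, 0.62 in CERM and -0.15 in BRCA in the single-end columns, and of 0.06, 0.14 and -0.35 in the paired-end columns. Other list members lay above WT in BRCA, and they are named after their values were seen. Cnp was at 0.11 and 0.32 in BRCA against WT, Mal at 0.03 and 0.23, Cadm4 at 0.34 and 0.28, and Mpp6 at 0.42 and 0.25, single-end and paired-end. Ugt8a was at 0.87 in the single-end columns. It reached 1 FPKM there in BRCA and AROM alone and was analysed through these columns, so its value is a description. Ugt8a was not analysed in the paired-end columns.

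The list of Schwann cell identity and signalling genes gave few calls against WT. Of its 22 genes 21 were in the table, and 16 and 14 loci were analysed. None passed 2-fold against WT in the single-end columns. In the paired-end columns Erbb3, a neuregulin receptor gene, was called lower in AROM, Lama2, a laminin gene of the Schwann cell basal lamina, higher in CERM, and Itgb4, an integrin gene, higher in BRCA. Each is 1 of 14 loci, beside 4.94%, 4.36% and 5.7% of all loci in AROM, CERM and BRCA against WT. In paired-end AROM against BRCA 12 of 14 lay below 0, with a median of -0.39, and Erbb3, Erbb2 (the partner receptor gene of Erbb3) and Itgb4 were called lower, beside 14.7% of all loci, whose median was -0.22. In the single-end columns 9 of 16 lay below 0 in that comparison, with a median of -0.05, and Itgb4 was called lower. Erbb3 was at 6.83 FPKM in AROM, 11.8 in CERM, 11.8 in BRCA and 13.7 in WT in the single-end columns and at 3.81, 9.97, 11.5 and 10.8 FPKM in the paired-end AROM, CERM, BRCA and WT columns. Dag1, the dystroglycan gene and the best expressed of the list, had log2 ratios of AROM to WT of 0.37 and -0.03, and Scn7a, a sodium channel gene, of 0.42 and 0.39. S100b, a Schwann cell and adipocyte calcium-binding protein gene, was highest in AROM, with log2 ratios to WT of 0.52 and 0.49.

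The genes with the most similar profiles were found by Pearson's r of log2(FPKM + 1) over the 8 columns, a description of 8 points that share normalization and, within a genotype, may share RNA. Prx was most like Cldn19, Asb8 and Vdac3, a mitochondrial channel gene (r = 0.99 each). Cldn19 entered this comparison only through its AROM and CERM columns, where Prx was also high, so its likeness to Prx is no support for the order. Mbp was most like Kbtbd13, a kelch-repeat gene of skeletal muscle, Prx and Iffo1 (0.99, 0.99 and 0.98), and Pmp22 most like Art3, Parp3 and Ptpla (0.99 each). Mag was most like Fam70b, Rapgef3 and Nap1l4 (0.98, 0.97 and 0.96). Sox10 was most like Gk5, Chd3 and Tgfb2, the gene of transforming growth factor beta 2 (0.99 each), and Egr2 most like Dnajc25, Plat, the tissue plasminogen activator gene, and Cxcl14, a chemokine gene (0.98, 0.98 and 0.97). Among the members r was 0.99 between Prx and Mbp, 0.89 between Prx and Pmp22 and 0.93 between Prx and Mag. It was -0.61 between Prx and Sox10 and -0.04 between Prx and Egr2.

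Markers of luminal epithelium moved with Sox10, and basal markers lay less far below WT in AROM by their medians. Elf5, a transcription factor gene of alveolar progenitors, had r = 0.99 with Sox10, and 0.0943% of the genes compared were closer; Cdh1, the E-cadherin gene, and Epcam had 0.98 and 0.97. The luminal epithelial list, 9 of 10 genes found and none at 0, summed to 431 FPKM in AROM, 605 in CERM, 887 in BRCA and 867 in WT in the single-end columns. It summed to 251 FPKM in AROM, 563 in CERM, 872 in BRCA and 694 in WT in the paired-end columns, so its lowest column was that of Sox10 in each layout. In AROM against WT 4 of 9 luminal genes were lower by 2-fold in the single-end columns (median -0.99), beside 1.8% of all loci called lower, and 8 of 9 in the paired-end columns (median -1.54), beside 2.91%. In the single-end columns 1 of the 9 lay above 0. Of the basal and myoepithelial list 8 loci were analysed. In AROM against WT 0 of these 8 were lower by 2-fold in the single-end (median -0.21) and 0 in the paired-end columns (median -0.62). Below 0 lay 5 of the 8 in the single-end and 7 in the paired-end columns, so most shared the direction of Sox10. In bulk tissue fewer cells of a type and less RNA per cell cannot be told apart, and the part of epithelium in the Sox10 values was not tested. Over these columns the profile of Sox10 was near those of luminal genes and not near that of Prx (r = -0.61). These profiles do not tell which cells gave the Sox10 RNA. Schwann cell gene is here a label from known function, and it was not tested for Sox10.

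**Figure D3:**
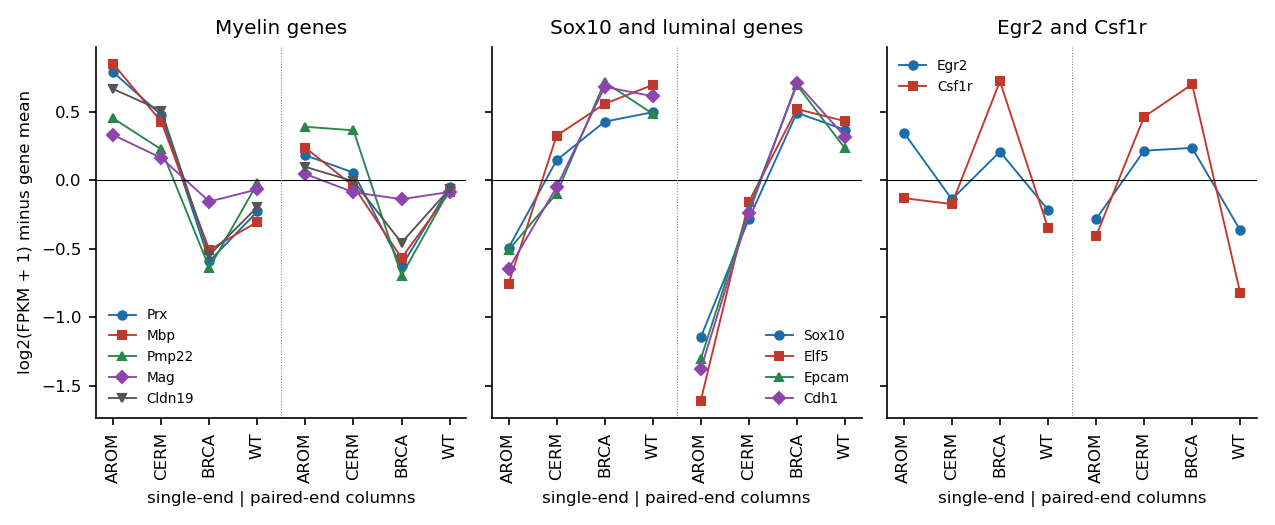
Log2(FPKM + 1) minus the mean of the gene over 8 columns (y axis) in AROM, CERM, BRCA and WT, single-end left and paired-end right of the dotted line (x axis), 1 pooled value each. Prx, Mbp, Pmp22, Mag and Cldn19 are lowest in BRCA in both layouts, Sox10 follows Elf5, Epcam and Cdh1 with its lowest values in AROM, and Egr2 and Csf1r are both lowest in WT. Cldn19 was under 1 FPKM in the BRCA and WT columns and was analysed through AROM and CERM.

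Skeletal muscle and adipocyte markers moved with the structure genes in part. The muscle list, 9 of 11 genes found and none at 0, summed to 34555 FPKM in AROM, 37033 in CERM, 15566 in BRCA and 12046 in WT in the single-end columns. The paired-end sums were 22478 FPKM in AROM, 28305 in CERM, 15184 in BRCA and 19893 in WT. Muscle genes were thus higher in CERM than in AROM by their sum, and in BRCA against WT all 9 lay above 0 in the single-end columns, where Prx, Mbp and Pmp22 lay below 0. In the paired-end columns 7 of the 9 lay below 0 in BRCA against WT, as these 3 genes did. The white adipocyte list, 9 of 10 found, summed to 19463 FPKM in AROM, 10839 in CERM, 8883 in BRCA and 14361 in WT in the single-end columns, and to 24614, 15956, 8217 and 10618 FPKM in the paired-end AROM, CERM, BRCA and WT columns. AROM was highest and BRCA lowest there too, but the list was lower in CERM than in WT in the single-end columns, where Prx, Mbp and Pmp22 were higher. Pmp22 had r = 0.91 with the adipocyte gene Adipoq and Prx had r = 0.91 with the troponin gene Tnnc2. The part of muscle and fat in the values of the structure genes was not tested.

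Defining markers of oligodendrocytes, the myelin-forming cells of the brain, were at or near 0. Opalin was listed at 0 in all 8 columns, Mog was at most 0.0170 FPKM and Mobp at most 0.0145 FPKM, while Olig1 lay between 0.337 and 2.08 FPKM. Macrophage markers moved with Egr2 in part. The macrophage list, 8 of 10 found, summed to 336 FPKM in AROM, 354 in CERM, 574 in BRCA and 322 in WT in the single-end columns. Its paired-end sums were 308 FPKM in AROM, 494 in CERM, 565 in BRCA and 246 in WT. Both Egr2 and this list were lowest in WT in each layout and higher in CERM in the paired-end than in the single-end columns. In the single-end columns they parted, with Egr2 highest in AROM (3.82 FPKM) and the list highest in BRCA. Between Egr2 and Csf1r, the receptor gene of macrophage colony-stimulating factor, r was 0.80, and 2.37% of the genes compared were closer to Egr2. The immediate early list summed to 119 FPKM in AROM, 201 in CERM, 158 in BRCA and 107 in WT in the single-end columns and to 89.8, 182, 159 and 103 FPKM in the paired-end AROM, CERM, BRCA and WT columns. The part of immune cells or of tissue handling in the Egr2 values was not tested.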

How the data were processed

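The submitters' processing notes name the mouse build mm9 and the tools FastQC (read quality), Trim Galore (trimming), TopHat (spliced alignment) and Cufflinks (FPKM estimates). For tool versions, strand handling and the combining of libraries, nothing is given in the sources used here. The authors deposited FPKM values, which scale fragments by transcript length and by mapped fragments, with 1 column per genotype and layout. Of 30843 loci, 8119 had no name and 585 several symbols. The remaining 22139 entered the filter of at least 1 FPKM in at least 2 of 4 columns of a layout, which left 12608 single-end and 12185 paired-end loci. Prx, Mbp (main locus), Pmp22, Sox10 and Egr2 passed it with at least 1 FPKM in all columns. Values were compared as deposited, as log2 ratios of FPKM + 1, which understate ratios of low genes, and called at 2-fold, in 6 comparisons per layout.

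Each layout was read by itself. The limma fits planned for single libraries could not be made. The members and gene lists were chosen with earlier results of these data known. Named genes are the 6 members, the 3 genes most like each (of 10602 with at least 1 FPKM in 4 columns) and list members: of the myelin and Schwann identity lists those with a mean of at least 1 FPKM, of the other lists up to 3 by the highest mean. Of the Schwann identity list, the called genes and the 3 with the highest mean are given, a choice made after their values were seen; Nefl, Nefm, Mobp, Opalin, Elf5, Epcam, Cdh1, Csf1r, Tnnc2 and Adipoq were added after their values were seen, as was Gpnmb in the closing section. Some genes of the myelin list are not reported here and were left out of its counts. Promoter sequences are RefSeq's, build GRCm38.p6. Python 3.11.15, pandas 2.3.3 and NumPy 2.4.6 were used.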

Additional observations from a re-analysis of the deposited data

How the results depend on the processing

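No paired analysis was possible because each genotype and layout has 1 pooled column, and leaving out single libraries was not possible for the same reason; with unknown depth, no counting error can be given. The counts of members past 2-fold were the same or within 1.5 times in all 12 comparisons with pseudocounts of 0.1 and 0.01 and with a filter on the mean of all 8 columns, which was added after the data were seen. Without a filter the low Mbp locus added 1 call in the paired-end columns of CERM against WT (1), against AROM (1) and against BRCA (2). In CERM against WT 2.85% of all loci were called without a filter. With the filter the shares of all loci were 4.36% against WT, 6.27% against AROM and 4.57% against BRCA. Median-ratio scaling gave 4 members in paired-end AROM against BRCA, where 2 were called without scaling beside 14.7% of all loci. Quantile normalization gave 0 in paired-end CERM against BRCA, where 1 was called without it beside 4.57% of all loci. The shares of all loci after median-ratio scaling and quantile normalization are not given for these comparisons, so the changed counts are a description. At 1.5-fold the single-end counts of 5 members were 2 in CERM against WT (beside 11.5% of all loci), 1 in BRCA against WT (15.9%), 1 in CERM against AROM (8.32%) and 3 in CERM against BRCA (16.0%). The paired-end counts were 1 in CERM against WT (13.2%), 2 in BRCA against WT (16.9%), 1 in CERM against AROM (22.1%), 4 in AROM against BRCA (39.0%) and 3 in CERM against BRCA (15.9%), so counts of 1 are near the share of all loci. Quantile normalization put Prx just under 2-fold (log2 ratio 1.00 rounded) and Sox10 past it (-1.02) in single-end AROM against WT, and put Pmp22 at 0.91 and 0.88 in AROM against BRCA. No called member changed direction in these settings. Values near 0 changed sign for paired-end Mbp in CERM against WT (-0.01 and -0.05 after median-ratio and quantile scaling), for Egr2 in CERM against BRCA and, after quantile normalization, for Pmp22 in CERM against AROM. The cause was not tested.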

Other observations

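Genes of axons were mostly too low to follow. Of 13 listed and found, 3 were analysed: Calca, Stmn2 and Uchl1. Uchl1, a ubiquitin hydrolase gene of neurons, was at 2.96 FPKM in AROM, 2.36 in CERM, 0.914 in BRCA and 1.72 in WT in the single-end columns and at 2.48, 2.31, 1.01 and 1.88 FPKM in the paired-end AROM, CERM, BRCA and WT columns, the order of Prx in both layouts. Calca, the gene of calcitonin and of the sensory neuropeptide CGRP, was at 65.3 FPKM in AROM, 80.3 in CERM, 34.7 in BRCA and 222 in WT in the single-end columns, and at 34.3, 109, 32.9 and 135 FPKM in the paired-end AROM, CERM, BRCA and WT columns. Calca was thus highest in WT, unlike Uchl1 and Prx. The neurofilament genes Nefl and Nefm were at most 0.278 and 0.0841 FPKM.

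Genes mutated in inherited neuropathy that act in Schwann cells, 9 listed and 8 analysed, lay mostly below WT in AROM, by less than 2-fold. In AROM against WT 7 of the 8 lay below 0 in both layouts, with medians of -0.27 and -0.39, and none passed 2-fold. The medians over all analysed loci were 0.00 in the single-end and -0.08 in the paired-end columns. Ndrg1, the best expressed, was at 60.7 FPKM in AROM, 77.2 in CERM, 77.2 in BRCA and 89.9 in WT in the single-end columns, and Litaf at 29.9 FPKM in AROM, 37.7 in CERM, 47.9 in BRCA and 47.1 in WT. These genes are widely expressed outside nerve.

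The single high value of the low Mbp locus, 3.27 FPKM in paired-end CERM, had company. The genes most like it over the 8 columns were Ctsl, Cd300ld and Gpnmb (r = 0.98, 0.97 and 0.96), and the likeness rests on that 1 column. Gpnmb, a glycoprotein gene of macrophages and other lysosome-rich cells, was at 102 FPKM in paired-end CERM and between 4.15 and 9.28 FPKM in the other 7 columns. Ctsl, the cathepsin L gene, was at 346 FPKM there and between 109 and 138 FPKM elsewhere. Of the 8 macrophage genes 5 were past 2-fold in CERM against WT in the paired-end columns, beside 4.36% of all loci, and 0 in the single-end columns. In BRCA against WT 7 of the 8 were past 2-fold in the paired-end columns, beside 5.7% of all loci, and 5 in the single-end columns. The part of macrophages in the value of the low Mbp locus was not tested.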
